A study of Oryza sativa with 11 samples.

Results

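The comparison described here asked whether salt changed root gene expression differently in 2 indica rice genotypes, the salt-sensitive cultivar IR29 and the salt-tolerant line FL478. FL478 is an inbred line (F8, from an F2 plant) of a cross that had IR29 as a parent, so the genotypes share part of their genome, and each is represented by 1 line. RNA came from root tips of about 2 cm that were cut 30 days after germination, at early tillering. Salt plants had received a mixture of NaCl and CaCl2 from day 22, raised over 3 days to a conductivity of 7.4 dS/m (about 60 mM NaCl) and held for 5 more days, and control plants stayed at 1.1 dS/m. All 11 arrays of the series entered the comparison, 3 of FL478 control, 3 of FL478 salt, 2 of IR29 control and 3 of IR29 salt. They are separate biological samples, and the array is the Affymetrix rice genome array. The quantity reported is the salt response of IR29 (salt minus control) minus the salt response of FL478, on the log2(signal + 32) scale. Positive values mean that a transcript rose more, or fell less, under salt in IR29. Of 57381 probe sets, 123 control probe sets were left out, 57258 were tested, and the 23223 with a mean signal above 100 units (40.6%) were tested again as a set of their own.

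Salt reaches the root tip first as an osmotic stress and then as an excess of sodium, and roots respond through abscisic acid signalling, ion transport and the control of growth. Rice roots also make labdane-related diterpenoids, the momilactones, phytocassanes and oryzalexins, from geranylgeranyl diphosphate by class II diterpene cyclases, class I synthases and cytochromes P450, many of them encoded in gene clusters. These compounds act as phytoalexins and some are released from roots, and they are often induced together with pathogenesis-related (PR) proteins, a mixed group of small antimicrobial or enzymatic proteins.

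Each array had been scaled to a trimmed mean near 500 units, and the median probe set read 48.8 to 61.3 units, with 36.6 to 41.9% of probe sets under 32 units. Log2 signals of any 2 arrays of a group correlated at 0.963 to 0.978. The log2 ratio of the 3′ to the 5′ probe set of GAPDH, a sign of RNA integrity, was 0.19 higher in salt than in control in FL478 and 0.22 higher in IR29, which left a difference of 0.03 between the genotypes. The same difference was -0.01 for actin and 0.22 for cyclophilin.

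The array labelled IR29 control replicate 1 stood apart from the other IR29 arrays. Probe sets were taken that read above 400 units on all 6 FL478 arrays and below 100 units on the other 4 IR29 arrays. There were 35, and 22 of them (62.9%) were above 100 units on IR29 control replicate 1, with a median position 37.7% of the way from the IR29 mean to the FL478 mean. In the reverse set of 20 probe sets, which were high in IR29 and low in FL478, its median position was 46.5% of the way to FL478, with 4 below 400 units. A probe set with no gene in the annotation used, for example, read 3780 to 5968 units on the 6 FL478 arrays, 19.1 to 41.4 units on 4 IR29 arrays and 6149.6 units on IR29 control replicate 1. IRT2, an iron-regulated metal transporter, read 14964, 16654 and 12232 units on FL478 control arrays, 5123, 8066 and 6087 in FL478 salt, 5834 and 92.3 in IR29 control and 124, 74.3 and 104 in IR29 salt. Its difference of responses was -1.51 on all arrays, 1.27 without IR29 control replicate 1 and -4.29 without IR29 control replicate 2. Both examples were chosen after their values were seen. FL478 control replicate 3 was above 100 units at 6 of 22 probe sets that were high in IR29 and low on the other FL478 arrays (median position 1.19%), and FL478 salt replicate 2 at 2 of 18. The other 8 arrays were above 100 units at none of the 13 to 16 probe sets tested for each. FL478 salt replicate 2 also stood apart where its own genotype was high. It was below 400 units at 7 of 20 such probe sets, with a median position of 60.9%, against 1 of 14 for FL478 control replicate 3, 1 of 17 for IR29 salt replicate 2 and none for the arrays not named here. With 2 IR29 control arrays, some results below are given with and without replicate 1. A result given only on all arrays can also have moved without it. The reasons for these positions were not tested.

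**Figure D1:**
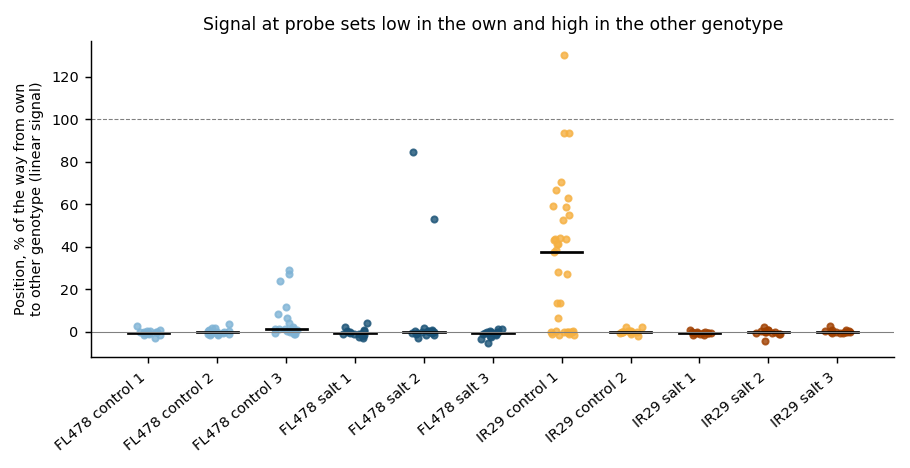
Position of each array between the genotypes (vertical axis, % of the way from the mean of its own genotype to the mean of the other, on linear signal) at probe sets that were low on the other arrays of its own genotype and high in the other genotype. Points are probe sets and bars are medians. IR29 control replicate 1 has its median at 37.7%, and the medians of the other arrays lie between -0.59 and 1.19%. Probe sets high in the own genotype are not shown, and there FL478 salt replicate 2 had a median of 60.9% and IR29 control replicate 1 of 46.5%.

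No probe set passed an adjusted p of 0.10 (limma with Benjamini-Hochberg adjustment) for the difference of responses. The count was 0 of 57258 (0%), with a smallest adjusted p of 0.231, and 0 of 23223 above 100 units (0%), with a smallest of 0.167. At an unadjusted p under 0.05 there were 2596 of all probe sets (4.53%) and 785 of those above 100 units (3.38%), 478 more positive in IR29 (2.06%) and 307 more negative (1.32%). At an unadjusted p under 0.01, which chose the probe sets described below, there were 136 above 100 units (0.586%). The shares in either direction at p under 0.05 and 0.01 were below the p threshold itself. Of the 136, 90 were more positive in IR29 (0.388%) and 46 more negative (0.198%). The median standard error of the difference was 0.32 above 100 units and 0.38 over all probe sets. In the same model, the single responses gave 270 probe sets above 100 units in FL478 (1.16%) and 9 in IR29 (0.0388%). Over all probe sets they gave 97 (0.169%) and 3 (0.00524%). The model took its spread from the arrays of both genotypes, so the count of 1 genotype also depends on arrays of the other. A call in 1 genotype and not in the other is no test of the difference. The 270 became 0 with the GAPDH ratio as a covariate, 909 with the replicate number as a block and 18 to 484 with 1 array left out, lowest without FL478 control replicate 1 and highest without IR29 salt replicate 2. The 9 became 0 with that covariate, 155 with array weights and 85 without IR29 control replicate 2. Adjusted p-values of single responses below carry the same dependence. Across the 23223 probe sets the responses of the genotypes correlated at 0.43 (Pearson, 0.42 Spearman), and across all 57258 at 0.23. These points share arrays and are not independent.

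The 136 probe sets were chosen on the difference of responses, a choice that itself favours responses of opposite sign. The signs and medians that follow describe the chosen set and are no separate result. Of the 90 that were more positive in IR29, 87 had a negative response in FL478 and 14 a negative response in IR29. Their median response was -0.88 in FL478 and 0.51 in IR29, and the responses had opposite signs for 73. Of the 46 that were more negative in IR29, 6 had a negative response in FL478 and 40 in IR29, with median responses of 0.46 and -0.49 and opposite signs for 34. Without IR29 control replicate 1, 133 probe sets had p under 0.01, and 46 were shared with the 136 (33.8% of the 136 and 34.6% of the 133), 32 positive and 14 negative. All 136 kept their sign without it, which their choice on these same arrays favours.

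**Figure D2:**
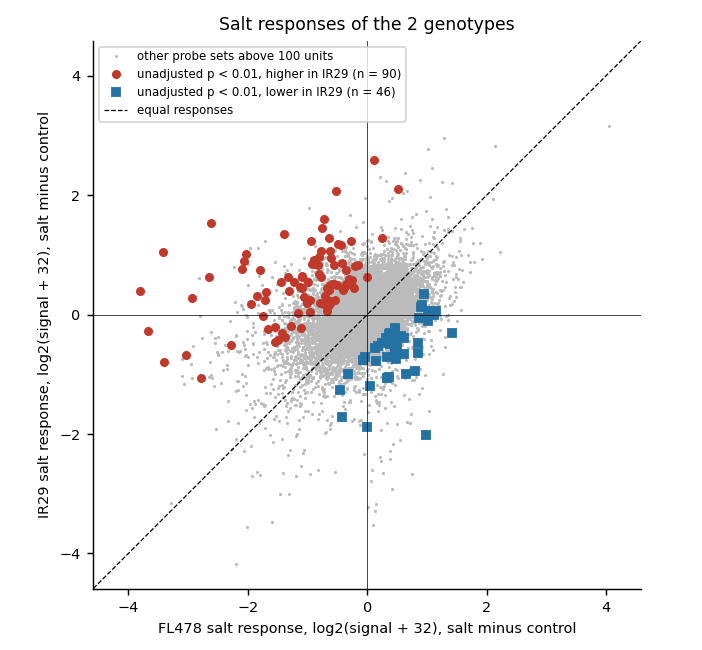
Salt response of IR29 (vertical axis) against that of FL478 (horizontal axis), both salt minus control on log2(signal + 32), for the 23223 probe sets above 100 units. The 90 red points (unadjusted p under 0.01, more positive in IR29) lie mostly left of 0, with a median FL478 response of -0.88, and the 46 blue squares (more negative in IR29) lie mostly below 0, with a median IR29 response of -0.49. No point passed an adjusted p of 0.10.

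The probe set with the smallest p has no gene in the annotation used. It read 9.8, 21.9 and 30 units on FL478 control arrays, 30.1, 20.5 and 21.6 in FL478 salt and 23 and 28.8 in IR29 control, against 280.1, 415 and 276 in IR29 salt. The 3 IR29 salt arrays were above all 8 others, which lay at or under 30.1 units. Its mean signal of 105 units passed the filter only through those 3 arrays, the group where it was high. The IR29 response was 2.60 (SE 0.22, limma adjusted p = 0.00781) and the difference 2.49 (SE 0.29, unadjusted p = 7.19e-06, adjusted p = 0.167). It was 2.42 without IR29 control replicate 1.

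The gene with the smallest p was PIR7B (LOC_Os01g70850), which encodes an esterase named for its pathogen-induced expression in rice. It read 2224, 2565 and 3325 units on the FL478 control arrays and 218, 209 and 244 on the FL478 salt arrays. In IR29 it read 1163 and 1968 in control and 611, 1136 and 922 in salt. The 3 FL478 salt arrays were below all other arrays, while in IR29 the salt and control groups lay next to each other without overlapping. PIR7B fell by 3.40 in FL478 (SE 0.26, adjusted p = 0.00341), its IR29 response was -0.79 (SE 0.29, adjusted p = 0.554), and the difference was 2.62 (95% interval 1.74 to 3.49, unadjusted p = 5.83e-05, adjusted p = 0.676). The difference was 2.24 without IR29 control replicate 1.

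The 12 most positive and 12 most negative differences were named among the genes with an unadjusted p under 0.01. Their adjusted p was 0.676 for PIR7B and 0.999 for each of the other 23. None is therefore a call, and the values that follow are descriptions.

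Genes of diterpenoid synthesis were among the most positive. CYP99A2 (LOC_Os04g10160), a cytochrome P450 in the momilactone gene cluster of chromosome 4, had the most positive difference of all named genes. It read 3549, 1195 and 953 units on the FL478 control arrays and 139.7, 42.3 and 243 on the FL478 salt arrays. The IR29 arrays read 57.8 and 189 in control and 192, 161 and 534 in salt. The 3 FL478 control arrays thus stood above the other 8, and the FL478 salt arrays overlapped both IR29 groups. The FL478 response of CYP99A2 was -3.42 (SE 0.65, adjusted p = 0.0617) and its IR29 response 1.04 (SE 0.72, adjusted p = 0.833), a difference of 4.47 (95% interval 2.30 to 6.63). CYP701A8 (LOC_Os06g37300), a relative of the ent-kaurene oxidase of gibberellin synthesis, read 556, 222 and 196 units on FL478 control arrays, 41.7, 28.9 and 70.4 in FL478 salt, 47.2 and 171 in IR29 control and 103, 143 and 536 in IR29 salt. The FL478 groups did not overlap (response -2.07, SE 0.58, adjusted p = 0.162) and the IR29 groups did, with a difference of 2.98 (SE 0.86).

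The pathway was also taken as a list, CYP99A2 and CYP701A8 included, that was chosen after these values were seen, so its counts are no independent support. The filter also favours a positive difference here. A gene can pass it through high FL478 control arrays alone, as CPS2 (below) did, and such arrays by themselves make the difference positive. Of 19 genes on the array, 9 were above 100 units. On all arrays the difference was positive for 8 of them and 5 had an unadjusted p under 0.05, all positive, with a median of 1.62. Over all 14005 genes above 100 units (1 probe set a gene) 2.98% had such a p, 1.93% positive and 1.06% negative, and the median was -0.02. CPS4, the syn-copalyl diphosphate synthase at the head of the momilactone pathway, read 957, 106 and 195 units on FL478 control arrays, 32.3, 25.3 and 206 in FL478 salt, 66.7 and 80.4 in IR29 control and 128, 101 and 673 in IR29 salt, a difference of 2.94 (SE 1.27). CPS2, the ent-copalyl diphosphate synthase of phytocassane synthesis, read 598, 328 and 93.2 units on FL478 control arrays, 29, 17.5 and 57.9 in FL478 salt, 3.7 and 69.3 in IR29 control and 16, 83.9 and 172 in IR29 salt, a difference of 3.03 (SE 1.01). For CPS4 1 FL478 control array and 1 IR29 salt array were far above the rest of their groups, and for CPS2 the FL478 groups did not overlap. CYP71Z7, a cytochrome P450 of the phytocassane cluster on chromosome 2, had a difference of 1.34 (SE 0.51), and CYP99A3, a momilactone P450, 1.62 (SE 0.75, unadjusted p = 0.0577). Without IR29 control replicate 1 these genes had smaller differences, 3.82 for CYP99A2, 2.30 for CYP701A8 and 2.85 for CPS4. The others were at 2.28 for CPS2, 1.13 for CYP71Z7 and 1.44 for CYP99A3. The member on the other side was CYP701A19, at -0.49 (SE 0.38) on all arrays and -0.09 without IR29 control replicate 1.

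Summed over these 9 genes, the signal was 8505, 3794 and 3012 units on the FL478 control arrays, 1738, 1465 and 2375 on FL478 salt, 1146 and 1469 on IR29 control, and 1345, 1427 and 3791 on IR29 salt. The FL478 control arrays were above all arrays of the other groups except IR29 salt replicate 3, which lay among them. The list median was 1.44 without IR29 control replicate 1 and 1.41 without FL478 control replicate 1, the array with the highest sum, and it ran from 1.41 to 2.16 without each array in turn.

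PR protein genes were also among the most positive. PBZ1, a PR10 protein named for its induction by probenazole, read 12339, 3647 and 4176 units on the FL478 control arrays and 1354, 293 and 1784 on the FL478 salt arrays. IR29 read 640.5 and 3408 in control and 3261, 3654 and 6947 in salt. The FL478 groups did not overlap, while the IR29 control arrays lay on both sides of the lowest IR29 salt array. The FL478 response of PBZ1 was -2.62 (SE 0.78, adjusted p = 0.187) and its IR29 response 1.53 (SE 0.87, adjusted p = 0.761), a difference of 4.15 (SE 1.17) on all arrays and 2.98 without IR29 control replicate 1. LOC_Os07g03467, annotated as a PR1-type protein (PRB1-3 precursor), read 2033, 496 and 977 units on FL478 control arrays, 97.9, 90.6 and 94.3 in FL478 salt, 207 and 104 in IR29 control and 56.7, 68.6 and 130 in IR29 salt. Its FL478 salt arrays came down into the range of the IR29 arrays. The FL478 response was -3.03 (SE 0.44, adjusted p = 0.0289), and the difference was 2.36 (SE 0.66).

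A list of PR proteins and chitinases, also chosen after values were seen and under the same filter, had 9 of 13 genes above 100 units. The difference was positive for 8, with an unadjusted p under 0.05 for 3 (1.93% of all genes were positive with such a p), and the median was 0.78. The 3 were PBZ1, PIR7B and the chitinase CHT2, which read 6111, 4047 and 2739.9 units on FL478 control arrays, 1755, 1373 and 1971 in FL478 salt, 3218 and 4595 in IR29 control and 2864, 3146 and 3421 in IR29 salt (0.97, SE 0.41). The member on the negative side, CHT3, was at -0.16 (SE 0.36) on all arrays and 0.05 without IR29 control replicate 2. Summed over the 9 genes, the signal was 23420, 12935 and 14295 units on FL478 control arrays, 6048, 4451 and 7907 in FL478 salt, 9323 and 13935 in IR29 control, and 12751, 12323 and 17736 in IR29 salt. The FL478 salt arrays had the lowest sums, and the other 3 groups overlapped. The list median was 0.49 without FL478 salt replicate 2.

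LOC_Os10g21670, LOC4324556 and LOC_Os04g01470 fell in FL478, each with an adjusted p under 0.10 for that response. LOC_Os10g21670, annotated as a dehydration stress-induced protein, read 1867, 919 and 417 units on FL478 control arrays, 6.5, 8.2 and 159 in FL478 salt, 11.1 and 9.3 in IR29 control and 21.8, 6.8 and 48.8 in IR29 salt. IR29 arrays of both groups thus stayed under 50 units, and its difference of 4.20 (SE 0.98) lay almost wholly in the FL478 response (-3.81, SE 0.65, adjusted p = 0.0454). Both IR29 control arrays read below the offset, so a fall in IR29 could hardly have been measured. IR29 minus FL478 was already -4.47 in control and was -0.27 in salt. The gene passed the filter only through its FL478 control arrays. LOC4324556 was unlike it, since IR29 stayed high under salt. That gene read 2776, 473 and 1599 units on FL478 control arrays, 39.7, 84.9 and 102 in FL478 salt, 922 and 1461 in IR29 control and 984, 504 and 1712 in IR29 salt, a difference of 3.39 (SE 0.91). LOC_Os04g01470, annotated as a caffeic acid 3-O-methyltransferase, a class of enzyme that methylates phenolic compounds, read 574, 522 and 254 units on FL478 control arrays, 39, 4.7 and 51 in FL478 salt, 45.6 and 190.3 in IR29 control and 43.9, 93.9 and 386 in IR29 salt (3.20, SE 0.95), with an FL478 response of -2.93 (adjusted p = 0.0967). That of LOC4324556 was -3.67 (adjusted p = 0.0409). Without IR29 control replicate 1 the difference was 2.45 for LOC_Os04g01470 and 3.07 for LOC4324556. The remaining 3, LOC_Os10g28299, LOC4329723 and LOC_Os05g08830, had differences of 3.28, 3.04 and 2.74. Without IR29 control replicate 1 these were 2.68, 2.61 and 2.11.

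ATL2A (LOC_Os04g49550), a RING-H2 finger protein of a family of ubiquitin ligases, differed from the genes above in that its response was the larger in IR29. It read 440.1, 132 and 121 units on FL478 control arrays, 192, 129 and 77.3 in FL478 salt and 177 and 145 in IR29 control, against 1027, 471 and 964 in IR29 salt. All 3 IR29 salt arrays were above every other array. The IR29 response was 2.07 (SE 0.51, adjusted p = 0.291), the FL478 response -0.53 (SE 0.46, adjusted p = 0.667) and the difference 2.60 (95% interval 1.08 to 4.13), 2.72 without IR29 control replicate 1.

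Further genes stood among the 10 smallest p without being among the 12 most positive differences, and were picked out for that. LOC_Os10g38501 (LOC4349190), annotated as GSTU6, a tau-class glutathione S-transferase, which conjugates glutathione to reactive or foreign compounds, was measured by 2 probe sets. RefSeq gives the name GSTU6 to another gene, LOC4349207, which is a member of the glutathione S-transferase list below. The brighter read 2018, 2354 and 1998 units on FL478 control arrays, 1127, 986 and 1129 in FL478 salt, 1284 and 1102 in IR29 control and 1112, 1580.4 and 1623 in IR29 salt, a difference of 1.20 (SE 0.25, unadjusted p = 0.000835), and the other gave 1.73 (SE 0.42, unadjusted p = 0.00211). The FL478 groups did not overlap on either probe set. LOC_Os01g72370, annotated as ORG3, the name of a basic helix-loop-helix factor of the iron deficiency response in Arabidopsis, read 1146, 675 and 1004 units on FL478 control arrays, 241, 197 and 358 in FL478 salt, 849 and 1062 in IR29 control and 1374, 829 and 1254 in IR29 salt. FL478 fell to below all other arrays (response -1.71, adjusted p = 0.0361) while the IR29 groups overlapped, a difference of 1.95 (SE 0.41). LOC_Os12g13800, a second gene annotated as a caffeic acid 3-O-methyltransferase, read at or under 111.5 units on every FL478 array, 1772 and 2710 in IR29 control and 6437, 7263 and 6585 in IR29 salt. All IR29 salt arrays were above both IR29 controls (IR29 response 1.61, adjusted p = 0.291, difference 2.33, SE 0.52). The other 3 probe sets of the 10 have no gene in the annotation used and differed by 1.66, 2.22 and 2.54.

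The 12 most negative differences lay between -3.01 and -1.12, and most belong to genes with no described function in the annotation used. LOC4325264 had the most negative. It read 180.2, 70.8 and 86.2 units on FL478 control arrays, 307, 277 and 158 in FL478 salt, 611 and 85.4 in IR29 control and 30.1, 86.8 and 9.8 in IR29 salt. Its difference of -3.01 (SE 0.90) became -1.78 without IR29 control replicate 1, which was the brightest of the 11 arrays, and -4.23 without replicate 2. LOC4341856 (-1.24 on all arrays), LOC4327323 (-1.88) and LOC4329989 (-1.49) also became smaller without replicate 1, at -0.67, -1.14 and -0.999.

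LOC4347968 had a larger difference without that array. It read 93.2, 132 and 88.2 units on FL478 control arrays, 255, 379.5 and 373 in FL478 salt, 82.7 and 191 in IR29 control and 108, 111 and 77 in IR29 salt. The 3 FL478 salt arrays were above all 8 others. The FL478 response was 1.43 (SE 0.26, adjusted p = 0.0587), the IR29 response -0.30 (SE 0.29, adjusted p = 0.905) and the difference -1.72 (95% interval -2.60 to -0.85), -2.20 without replicate 1. TIM13 (LOC4330332), a small chaperone of protein import into mitochondria, read 111, 79.3 and 88.1 units on FL478 control arrays, 219.9, 141 and 223 in FL478 salt, 164 and 202 in IR29 control and 149.7, 106 and 115 in IR29 salt, a difference of -1.32 (SE 0.29). A brighter probe set of the same gene gave -0.06 (SE 0.25).

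LOC4330517 (LOC_Os02g48450), annotated as xylem cysteine proteinase 2, a protease named from Arabidopsis xylem, rose in FL478. It read 430.5, 386 and 503 units on the FL478 control arrays and 965, 877 and 900.1 on the FL478 salt arrays, with 498 and 328 in IR29 control and 397, 425 and 307 in IR29 salt, so that its FL478 salt arrays were above all others. The FL478 response was 1.01 (SE 0.18, adjusted p = 0.0566), the IR29 response -0.11 (SE 0.21, adjusted p = 0.967) and the difference -1.12 (95% interval -1.73 to -0.50). LPR4, a multicopper oxidase of the family that acts in the root response to low phosphate in Arabidopsis, read 1093, 1486 and 1097 units on FL478 control arrays, 1515, 1813 and 1776 in FL478 salt, 1411 and 1053 in IR29 control and 740.5, 888 and 688 in IR29 salt (-1.12, SE 0.27). Salt arrays were above the control arrays in FL478 and below them in IR29. LOC_Os04g38000 fell in IR29, from 596 and 792 to 236, 155 and 177 units (response -1.72, SE 0.25, adjusted p = 0.0987), and its FL478 response was -0.43 (SE 0.22, adjusted p = 0.438).

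Several of these genes have other probe sets that did not show the difference. For LOC4324378 (-1.40) a brighter probe set gave -0.16 (SE 0.36), for LOC4329989 (-1.49) it gave 0.11 (SE 0.22) and for LOC4341856 0.15 (SE 0.22). The remaining 2 negative genes, LOC4350631 and LOC4343015, had differences of -1.74 and -1.21. For LOC4327323 the 2 other bright probe sets gave 1.28 (SE 0.70) and -0.08 (SE 0.19).

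**Figure D3:**
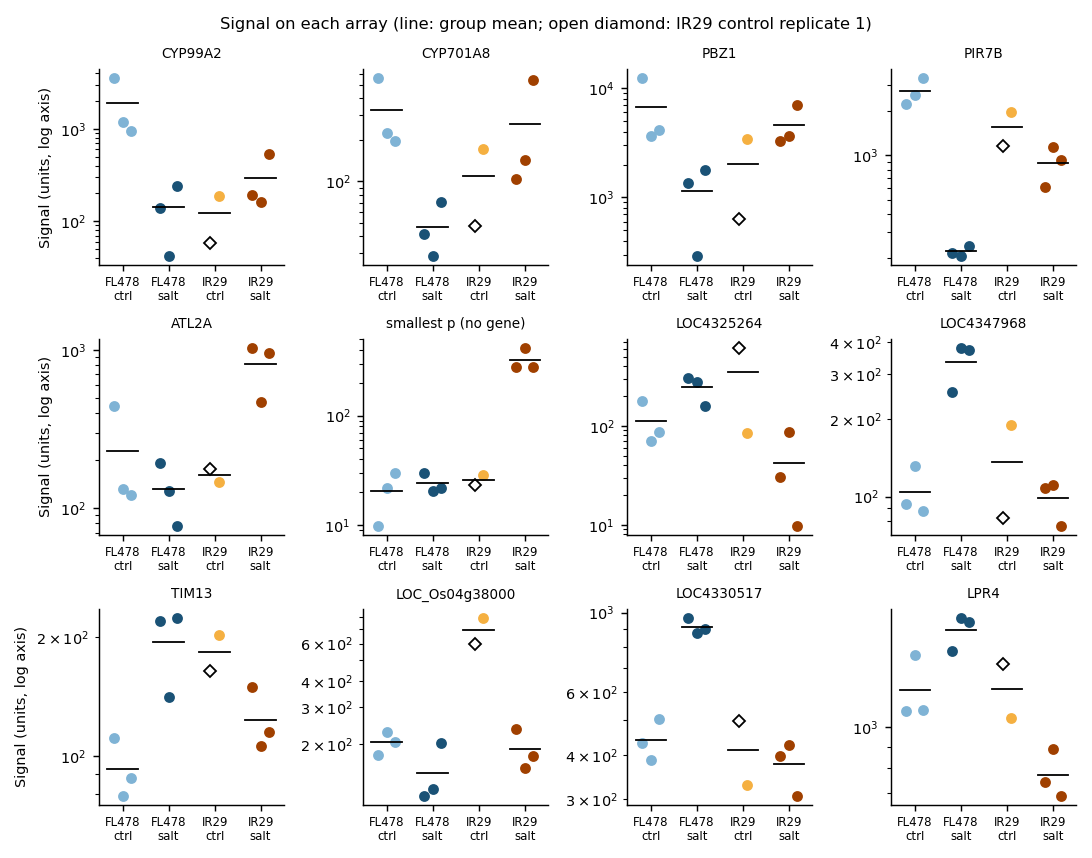
Signal in units (vertical axis, log scale, a different range in each panel) on each array for 12 probe sets, by genotype and treatment (ctrl, control). Points are arrays, lines are group means, and the open diamond is IR29 control replicate 1. The 3 FL478 salt arrays of PIR7B lie at 209 to 244 units, below all other arrays, and the 3 IR29 salt arrays of the probe set with the smallest p (no gene) lie at 276 to 415 units, above all others.

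Over the 24 named genes, the sign of the difference was kept without each array in turn. Without IR29 control replicate 1 the median of the 12 positive differences moved from 3.12 to 2.70 and that of the 12 negative ones from -1.36 to -1.42. The size became smaller for 9 of the 12 positive and 7 of the 12 negative genes. The 24 were chosen for large differences on these same arrays. That choice favours keeping the sign with 1 array left out, so the kept signs are no independent support.

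**Figure D4:**
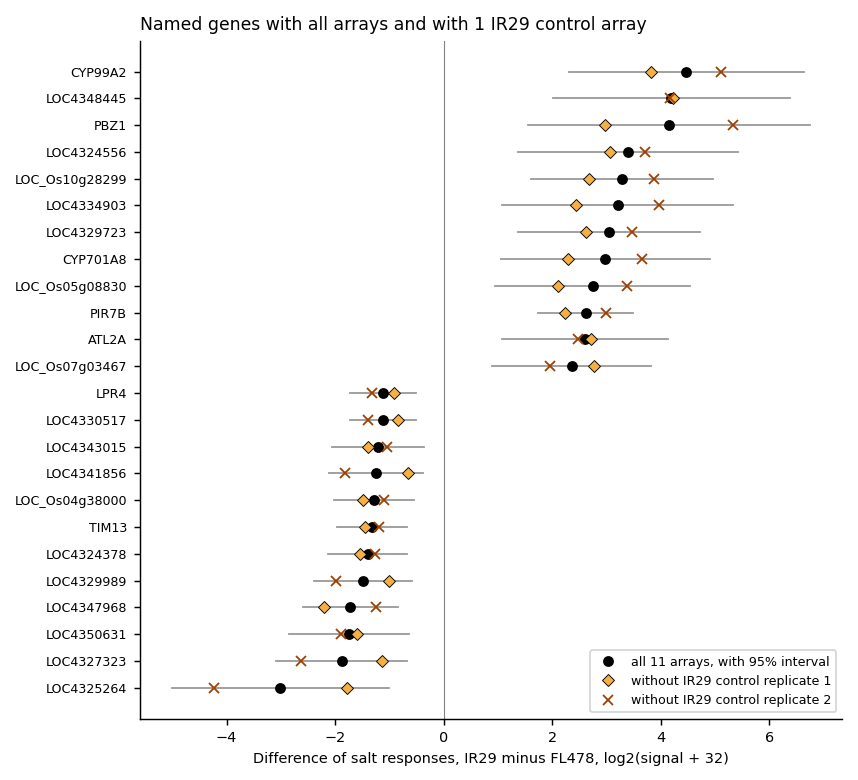
Difference of salt responses (horizontal axis, IR29 minus FL478, log2(signal + 32)) for the 24 named genes with all 11 arrays (black, with 95% interval), without IR29 control replicate 1 (orange diamonds) and without IR29 control replicate 2 (crosses). PBZ1 lies at 4.15 with all arrays and at 2.98 without IR29 control replicate 1, and LOC4325264 at -3.01 and -1.78.

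Further genes were grouped in 29 lists of known root and stress functions. Members were matched on gene symbols and synonyms, so a list holds the genes named in that way and not a whole family. Among the lists with at least 3 genes above 100 units, those of NAC and WRKY transcription factors had the most positive medians. No member of any list passed an adjusted p of 0.10. For comparison, the difference was positive for 6655 and negative for 7350 of all 14005 genes above 100 units. Of those genes 2.98% had an unadjusted p under 0.05, the share beside which the counts of such members below are to be read. NAC factors, plant-specific transcription factors many of which act in stress, had 7 of 8 genes above 100 units, 4 with a positive difference and 3 of these with an unadjusted p under 0.05 (median 0.81), against 1.93% of all 14005 genes above 100 units. NAC068 read 528, 331 and 223 units on FL478 control arrays, 307, 331 and 238 in FL478 salt, 165 and 301 in IR29 control and 593, 294 and 543 in IR29 salt (1.15, SE 0.51). NAC048, also named SNAC2, read 5330.1, 2716 and 2610.2 units on FL478 control arrays, 2549.8, 2072 and 2112 in FL478 salt, 1932 and 2013 in IR29 control and 2512, 2331 and 2945 in IR29 salt (0.96, SE 0.38, 0.63 without FL478 control replicate 1). NAC45 fell in FL478 from 330.1, 401 and 337 to 148, 189 and 164 units (response -0.97, adjusted p = 0.0717), and read 378 and 368 in IR29 control and 311, 255 and 452 in IR29 salt (0.81, SE 0.29). Without IR29 control replicate 1 the differences were 0.77 for NAC068, 0.94 for NAC048 and 0.82 for NAC45. WRKY factors, which regulate defence genes among others, had a median of 0.62 over 6 genes, 5 of them positive, and none with such a p. The most positive, WRKY71, spread widely within groups, at 4968, 807 and 2176 units on FL478 control arrays and 1522, 758 and 3613 in IR29 salt, and its difference of 1.20 (SE 1.16) became 0.57 without FL478 control replicate 1. The AP2/ERF and DREB list (median 0.18 over 10 genes) and the MYB list (0.25 over 10) had none with an unadjusted p under 0.05. DREB1B, a cold and drought response factor, was at 1.37 (SE 1.48), 2.89 without IR29 control replicate 1 and -0.15 without replicate 2.

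Among protective proteins, 25 of 33 heat shock proteins and factors had a positive difference (median 0.29), 1 of them with an unadjusted p under 0.05, a share near the 2.98% over all genes. This was HSP24.1, a small heat shock protein, which read 1244, 3067 and 2694 units on FL478 control arrays, 827, 1129 and 949 in FL478 salt, 1940.3 and 2324 in IR29 control and 2533, 2127 and 6177 in IR29 salt (1.75, SE 0.63). SALT, a mannose-binding lectin first found as a salt-induced protein in rice, read 7276, 4245 and 6049 units on FL478 control arrays, 2698, 2221 and 3505 in FL478 salt, 3218 and 3553 in IR29 control and 2496, 3109.5 and 3469.8 in IR29 salt (0.87, SE 0.35). Its FL478 groups did not overlap and its IR29 groups did. For reactive oxygen scavenging, 10 of 14 genes were negative (median -0.08), and APX5, an ascorbate peroxidase, had an unadjusted p under 0.05. It read 186, 166 and 188 units on FL478 control arrays, 209, 301 and 179 in FL478 salt, 191 and 33.3 in IR29 control and 41.9, 11.1 and 14.1 in IR29 salt. IR29 control replicate 1 lay in the range of FL478, and the difference was -1.47 on all arrays and -0.58 without it.

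Transport genes showed small or unsteady differences. None of the 19 sodium and potassium transport genes above 100 units had an unadjusted p under 0.05 (11 positive, 8 negative, median 0.04). HKT1.5, which retrieves sodium from the xylem sap in rice, read 79.7, 74.4 and 637 units on FL478 control arrays, 566, 348 and 416 in FL478 salt, 466 and 137 in IR29 control and 224, 106 and 614 in IR29 salt. The FL478 control arrays alone spanned the whole range of the 11 arrays, and the interval of the difference, -3.81 to 1.30, held changes of either sign. The difference was -1.26 on all arrays, and without each array in turn it ran from -2.13 without FL478 control replicate 3 to -0.48 without IR29 control replicate 1. Of 19 aquaporins, the water channels, 16 were negative (median -0.10), with none at an unadjusted p under 0.05. The largest was the plasma membrane aquaporin PIP2;5, at -1.17 (SE 1.05) on all arrays and -0.27 without IR29 control replicate 1, and TIP1;2 of the vacuolar membrane moved from -1.12 to -0.47. Among 39 metal homeostasis genes, HMA4 (0.57, SE 0.22) and HMA5 (0.61, SE 0.24), heavy metal ATPases that carry copper, had an unadjusted p under 0.05 (list median 0.07). Over all genes 2.98% had such a p. HMA5 fell in FL478 from 6361, 6573 and 6729.5 to 2477, 2559 and 2613 units (adjusted p = 0.0226) and read 6073 and 4981 in IR29 control and 2733, 3159 and 4112 in IR29 salt (response -0.74, adjusted p = 0.291).

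Of 45 cell cycle and replication genes, 32 were negative (median -0.15) with 1 at an unadjusted p under 0.05 on each side. Over all genes the shares with such a p were 1.93% positive and 1.06% negative. MCM7, a subunit of the replicative helicase, read 398, 477 and 463 units on FL478 control arrays, 494, 734 and 586 in FL478 salt, 689.6 and 659.6 in IR29 control and 548, 604 and 529.7 in IR29 salt (-0.66, SE 0.24). Salt arrays lay above control arrays in FL478 and below them in IR29. MCM9, a relative with a role in DNA repair in animals, was at 1.45 (SE 0.62) on all arrays and 0.90 without FL478 salt replicate 2. Glycolysis and fermentation had 15 of 19 negative (median -0.16), with the hexokinase HXK4 (LOC4342654) at -0.83 (SE 0.37, unadjusted p = 0.0497). A second gene with that name as a synonym, LOC4326776, was at 0.17. SUS3, a sucrose synthase that cleaves sucrose for growth, read 1256, 620 and 734 units on FL478 control arrays, 164, 179.8 and 427 in FL478 salt, 601 and 685 in IR29 control and 744, 566 and 1413 in IR29 salt (2.07, SE 0.61, unadjusted p = 0.00713). The list of sugar cleavage and transport, 25 genes with SUS3, had a median of 0.02. Among 25 ribosomal proteins 18 were negative (median -0.03), and RPS14, whose gene model also carries a succinate dehydrogenase subunit in the annotation, had an unadjusted p under 0.05 (-0.56, SE 0.21).

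Of 12 phenylpropanoid and flavonoid genes above 100 units (of 15), 7 were positive (median 0.04), and 1 had an unadjusted p under 0.05, the smallest p among members of these 29 lists. It was CHS (LOC_Os11g32650), a chalcone synthase, the entry enzyme of flavonoid synthesis, which read 954, 783 and 612 units on FL478 control arrays, 617, 451 and 628 in FL478 salt, 186 and 279 in IR29 control and 391.5, 669.5 and 652 in IR29 salt. Salt arrays were above control arrays in IR29, and the FL478 groups overlapped. The IR29 response was 1.17 (SE 0.28, adjusted p = 0.291), and the difference was 1.62 (SE 0.38, unadjusted p = 0.0017), 1.36 without IR29 control replicate 1.

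In the cell wall and hormone lists the members with the largest differences stood apart from small medians. CSLF2, which makes mixed-linkage glucan, was at 2.01 (SE 0.82) on all arrays and 1.28 without IR29 control replicate 1, in a list of 28 cellulose synthases and relatives with a median of -0.20, where CSLA5 was at -0.50 (SE 0.22). CASPL1D1, of the family of Casparian strip membrane proteins, read 655, 559 and 2043 units on FL478 control arrays, 274, 287 and 399 in FL478 salt, 8555 and 14244 in IR29 control and 16832, 15342 and 16195 in IR29 salt. IR29 exceeded FL478 throughout, and FL478 control replicate 3 and IR29 control replicate 1 were the 2 arrays that lay toward the other genotype (1.98, SE 0.62, 1.05 without both). Of 49 auxin genes, 2 had an unadjusted p under 0.05, a share near the 2.98% over all genes, and the list median was -0.08. One was IAA2, a repressor of auxin signalling (1.13, SE 0.47, 0.87 without IR29 control replicate 1). The other was GH3.6, of a family that conjugates auxin to amino acids (0.58, SE 0.21). In the ethylene list (median -0.13 over 9 genes) EIL1 of LOC4332697, a factor of ethylene signalling, was at -1.35 (SE 1.34) on all arrays and 0.19 without IR29 control replicate 1. The neighbouring gene LOC107276358, which shares the name, was at 0.20. The calcium sensor, abscisic acid, bZIP, glutathione S-transferase, expansin, cytokinin, metallothionein, nitrogen and class III peroxidase lists had no member with an unadjusted p under 0.05 and medians from -0.35 (peroxidases, 2 genes) to 0.20 (nitrogen uptake and assimilation, 13 genes).

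**Figure D5:**
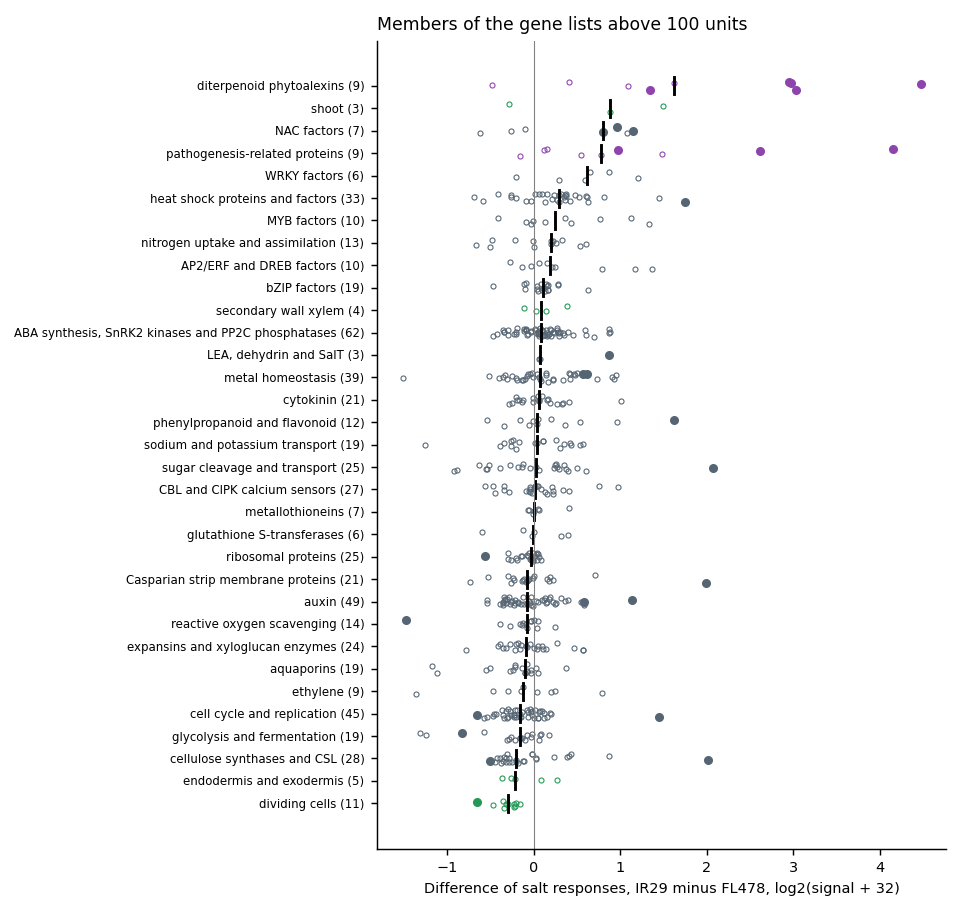
Difference of salt responses (horizontal axis, IR29 minus FL478, log2(signal + 32)) for members above 100 units of each list with at least 3 such members (number in brackets). Filled points have an unadjusted p under 0.05, bars are list medians, grey lists cover root and stress functions, green lists are cell markers, and purple lists were chosen after values were seen. The diterpenoid list has a median of 1.62 and the dividing cell markers one of -0.30.

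Markers of root cell types were read in the same contrast. All 11 markers of dividing cells above 100 units (of 12) had a negative difference, with a median of -0.30, -0.49 without IR29 control replicate 1 and -0.11 without IR29 control replicate 2. It was -0.14 without FL478 salt replicate 2, -0.18 without FL478 control replicate 3 and -0.14 without IR29 salt replicate 3. Their summed signal was 12014 to 14288 units on FL478 control arrays, 13025 to 16723 in FL478 salt, 14301 to 18019 in IR29 control and 12112 to 16109 in IR29 salt. Salt and control sums overlapped in both genotypes, and MCM7 was the 1 member with an unadjusted p under 0.05. Markers of secondary wall xylem (4 of 5 above 100 units, median 0.09) and of endodermis and exodermis (5 of 5, median -0.21) had no member with an unadjusted p under 0.05. The endodermis sums were 49106 to 54083 units in FL478, 56636 and 57340 in IR29 control and 43695 to 53774 in IR29 salt, so that they overlapped with treatment in FL478 and not in IR29. Shoot markers, which a root sample should lack, had 3 of 6 genes above 100 units (median 0.88, none with such a p), which summed to 884 to 1266 units on FL478 control arrays, 399.7 to 553 in FL478 salt, 375 and 841 in IR29 control and 257 to 888 in IR29 salt. The 1 root hair marker was at 0.24. The 1 phloem marker was under 100 units. In whole root tips, fewer cells of a type and less RNA per cell cannot be told apart, and the part of tissue makeup in the differences above was not tested.

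Probe sets with a p under 0.01 and either a single annotated gene or a rice locus in tables of the study were spread over all 12 chromosomes. RefSeq genes were placed on assembly ASM3414082v1. The share ran from 1 of 877 above 100 units on chromosome 9 (0.114%) to 12 of 1411 on chromosome 4 (0.850%).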

How the data were processed

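Root tip RNA of 11 samples was hybridised to 1 Affymetrix rice genome array each. The authors deposited the signal intensity of each probe set on a linear scale, computed with GCOS, scaled to a trimmed mean near 500 units on every array and not logged. The study's own normalization and comparisons were not used here. Intensities were taken as log2(signal + 32) and a model with 4 group means was fitted to each probe set with limma 3.58.1 in R 4.3.3 (lmFit and eBayes). The contrast was the IR29 response minus the FL478 response, with Benjamini-Hochberg adjustment over 57258 probe sets, or over 23223 in a separate fit of those with a mean above 100 units, and a threshold of 0.10. Unless another is named, values are of the second fit. Standard errors and p-values of the other probe sets of a named gene are of the first fit, over all 57258 probe sets. The offset of 32 makes fold changes of weak probe sets smaller, and the number of arrays limits the precision.

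Named genes were the 12 most positive and 12 most negative with an unadjusted p under 0.01 and either 1 annotated gene or a rice locus in tables of the study. The 10 probe sets of smallest p were added. LOC_Os10g28299, LOC_Os05g08830, LOC_Os07g03467 and LOC_Os04g38000 entered through such a locus only. The study's tables list genes that it called or clustered, in part from these same arrays, so that way of entry is not independent of the values. Gene lists were matched on gene symbols and synonyms and used the brightest probe set of each gene. Members and lists were chosen with earlier results of these data known. Gene names came from the platform annotation and RefSeq (ASM3414082v1), with 22436 probe sets matched to 1 gene, 95 to several and 34727 to none, and rice loci for 1609 probe sets from tables of the study. The scripts were tested on simulated data. Alternatives covered the offset, floor, normalization, variance model, filter, replicate block, RNA integrity and each array left out.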

Additional observations from a re-analysis of the deposited data

How the results depend on the processing

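For the difference of responses the count stayed at 0 under most alternatives. With signals under 32 units set to 32 it was 41 of all probe sets, 36 of them with at least 6 arrays under 32, and 1 above 100 units (the one with the smallest p). Leaving out 1 array gave 0 to 18 calls over all probe sets (18 without IR29 control replicate 2, 1 without IR29 salt replicate 1) and 0 to 27 above 100 units (27 without IR29 control replicate 2, 3 without IR29 salt replicate 2). Of those 27, 25 were negative, 24 of the 25 read over 3 times higher on IR29 control replicate 1 than on replicate 2, and 9 of the 27 had an unadjusted p under 0.05 on all arrays. Without IR29 control replicate 1, and without it and FL478 control replicate 3 together (an alternative chosen after seeing the data), the count was 0.

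The count of calls over all probe sets for the FL478 response, 97, became 1 at a threshold of 0.05, 14 with an offset of 16, 171 with an offset of 64, 256 with an intensity trend and robust variance, 224 over probe sets above the median signal, 0 with the GAPDH ratio as a covariate and 0 without both doubted controls. Leaving out 1 array gave 1 to 86. For the IR29 response the count of 3 became 1 at a threshold of 0.05, 1 with an offset of 16, 80 with the floor, 25 with the trend, 6 with array weights, 0 with the GAPDH covariate and 0 without both controls, and leaving out 1 array gave 0 to 49. Above 100 units the FL478 count of 270 became 100 at a threshold of 0.05, 437 with array weights, 0 with the GAPDH covariate and 18 without both controls, and leaving out 1 array gave 18 to 484. The IR29 count of 9 became 4 at a threshold of 0.05, 4 with an offset of 16, 5 with the floor, 31 with the trend, 155 with array weights, 0 with the GAPDH covariate, 3 with the filter on the mean of group means and 0 without both controls, and leaving out 1 array gave 2 to 85. The labels do not say that a replicate number marks shared material, so the numbers were not taken to pair the samples. The data themselves hint at structure shared by replicate number. In their deviations from group means, 11 of 15 same-numbered pairs correlated over 0.1 (-0.17 to 0.41). Same-numbered pairs had a median correlation of 0.17 and differently numbered ones -0.11, and 8 of 11 arrays correlated best with their own number. With the replicate block the difference gave 0 calls in both sets, FL478 gave 127 over all probe sets and 909 above 100 units, and IR29 gave 0 and 9. Above 100 units, 196 probe sets then had an unadjusted p under 0.01 for the difference, against 136 without the block. The named genes and their p-values come from the model without the block.

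Of 1280 values of 64 single probe sets under alternatives, 1266 kept their direction and side of the threshold, 6 passed it and 8 reversed. The reversed were CHT3 at 0.047 without FL478 control replicate 2, 0.053 without IR29 control replicate 2 and 0.020 without IR29 salt replicate 3 (-0.44 to 0.053), CYP701A19 at 0.030 without IR29 control replicate 1 and FL478 control replicate 3 (-0.88 to 0.030), DREB1B at -0.15 without IR29 control replicate 2 (-0.15 to 2.98 over all arrays left out), EIL1 at 0.19 without IR29 control replicate 1 (-2.89 to 0.19), and IRT2 at 1.27 without that array and 1.39 without it and FL478 control replicate 3 (-4.29 to 1.39). Apart from the floor and the arrays left out, the cause of these changes was not tested. The 2 IR29 control arrays limit the precision of the difference, whose median standard error was 0.32.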
